A study of Mus musculus with 24 samples.

Results

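The genes described here are 9 genes of retinoid metabolism and signalling, Rbp4, Rdh10, Aldh1a1, Aldh1a3, Crabp1, Crabp2, Rara, Rarb and Rarg, out of 24825 genes listed in each library. They were taken by name, as the rows with these symbols and not by a threshold on their values, but with earlier results of these data known. RNA-seq was performed in immortalised stromal vascular fraction (SVF) cells, a mixed preparation that holds adipocyte precursors, from inguinal white adipose tissue of mouse. All cells came from Nfia flox/flox mice, in which exon 2 of Nfia lies between loxP sites, and all carried SV40 large T antigen. NFIA, the product of Nfia, is a member of the nuclear factor I proteins, which bind DNA and control transcription. In ctrl cells an empty retroviral vector was introduced, and in Cre cells a retrovirus with Cre recombinase. Cre + NFIA cells carried Cre together with FLAG-tagged full-length NFIA from a further retrovirus. Cre + NFIA Δpro#3 cells carried Cre together with a FLAG-tagged NFIA that lacks its C-terminal end, a part of its proline-rich domain. Each of these 4 cell types was sampled before differentiation (day 0) and at day 7 of differentiation to thermogenic adipocytes with isobutylmethylxanthine, indomethacin, dexamethasone, insulin, T3 and rosiglitazone. This gave 8 groups of 3 libraries. The model is a cultured, SV40 immortalised line with retroviral transgenes, and rosiglitazone, a ligand of the adipocyte receptor PPARγ, was in the medium of all cell types that were differentiated. The labels do not state whether the 3 replicates were separate cultures, so p-values measure only the spread among these libraries.

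Vitamin A travels in blood as retinol bound to RBP4, a protein secreted by liver and also made by adipocytes. Inside cells retinol is oxidised to retinal by retinol dehydrogenases such as RDH10, and retinal is oxidised to retinoic acid by aldehyde dehydrogenases of the ALDH1A family. Retinoic acid is bound in the cytoplasm by CRABP1 and CRABP2 and acts in the nucleus through the receptors RARα, RARβ and RARγ, which bind DNA as heterodimers with retinoid X receptors (RXR). Retinoic acid given early is known to block adipogenesis in cultured precursors, whereas retinoids in mature fat cells are known for raising thermogenic genes.

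Levels are in FPKM, read counts scaled by the length of the gene and by the library total. Comparing levels of different genes, or their shares of a sum, rests on the deposited gene lengths. For some genes these differed from the exonic bases in the GENCODE annotation. They were 2295 against 4160 bases for Rdh10, 3021 against 2053 for Aldh1a1 and 3399 against 4109 for Rarg, but equal for Rbp4 and Crabp1. Totals of the libraries were 7732829 to 13088356 reads at day 0 and 9152991 to 14622189 reads at day 7. Fold changes are log2 differences of FPKM + 1, which makes changes of low genes smaller, and a difference is said to have passed where limma gave a Benjamini-Hochberg adjusted p under 0.05 over the 12640 genes tested. The targeted gene did not check the Cre label. The 3 ctrl libraries of day 0 had Nfia levels of 6.23, 6.75 and 6.43 FPKM, and the libraries labelled Cre had 6.81, 5.34 and 6.49 FPKM. On day 7 these were 9.81, 9.15 and 9.7 FPKM (ctrl) and 10.7, 10.1 and 9.49 FPKM (Cre), so the groups overlapped at both days. These values are summed over the whole gene, of which the floxed exon is a small part, and every direction given for Cre below rests on the label. The study also examined recombination by genomic PCR and NFIA by other assays, which were not analysed here. With a transgene Nfia was at 59.7 to 74.9 FPKM at day 0 and 83.9 to 111 FPKM at day 7, and these values include transgene reads.

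Adipocyte markers moved with the cell types. The summed FPKM of 9 markers (Pparg, Cebpa, Fabp4, Adipoq, Plin1, Cidec, Lpl, Cd36, Retn) was 72.5 to 118 in all day 0 libraries. At day 7 it was 22230 to 25740 in ctrl, 4446 to 9527 in Cre, 21180 to 21370 with full-length NFIA and 851 to 2158 with the Δpro#3 mutant. The summed FPKM of 8 precursor or fibroblast genes went the other way, with 845 to 917 in ctrl, 1818 to 2084 in Cre, 758 to 856 with full-length NFIA and 1984 to 2313 with the mutant. Smooth muscle markers (3 genes) summed to 218 to 281 FPKM in ctrl, 260 to 322 in Cre, 122 to 147 with full-length NFIA and 348 to 429 with the mutant at day 7. The 5 leukocyte and macrophage markers summed to 5.31 to 5.93, 6.33 to 8.0, 4.46 to 6.55 and 9.78 to 10.5 FPKM in the same cell types, with Ptprc and Emr1 at no more than 3 reads in any of these libraries. The 4 endothelial markers summed to 1.55 to 2.78 FPKM, and to 4.47 to 5.03 FPKM with the mutant, with Cdh5 at no more than 3 reads. In such bulk samples, fewer adipocytes and less RNA of a gene per adipocyte cannot be told apart.

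Rbp4, which encodes the secreted retinol carrier, spans 38191110 to 38199811 of chromosome 19 in mm9 (NCBIM37), on the minus strand. Its promoter is shown because Rbp4 changed most among the 9 genes, with TTGGC, the core that nuclear factor I proteins bind in pairs, in capitals (searched on both strands). It is the 250 bases before the first of 2 RefSeq starts, at chr19:38125322-38125571 of GRCm38.p6 on the minus strand.
Rbp4: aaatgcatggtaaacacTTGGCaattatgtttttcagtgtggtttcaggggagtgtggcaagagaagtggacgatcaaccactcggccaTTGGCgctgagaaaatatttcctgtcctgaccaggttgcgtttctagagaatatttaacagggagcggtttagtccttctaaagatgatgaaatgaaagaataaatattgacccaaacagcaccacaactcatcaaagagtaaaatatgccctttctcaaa
TTGGC started at -233 and at -161 from the start, both on the strand shown, and at -234 before the other start. This core was in 41.5% of 32851 RefSeq windows of the same length, so its presence is common, and the match is a description of the letters only.

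Before differentiation Rbp4 was near the limit of detection. Levels were 0.684, 1.11 and 0.884 in ctrl, 0.531, 0.598 and 0.386 in Cre, 0.868, 1.47 and 1.29 with full-length NFIA and 0.989, 0.565 and 0.423 FPKM with the mutant, which was 4 to 18 reads per library. On day 7 the levels were 78.8, 87.9 and 84.8 FPKM in ctrl (83.9 ± 4.64, SD, n = 3), 9.90, 13.7 and 7.4 FPKM in Cre (10.3 ± 3.19), 307, 346 and 313 FPKM with full-length NFIA (322 ± 21.1) and 1.52, 2.74 and 3.22 FPKM with the mutant (2.49 ± 0.877). The 4 cell types did not overlap at day 7, in the order full-length NFIA, ctrl, Cre, mutant, and each neighbouring pair in that order passed.

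**Figure D1:**
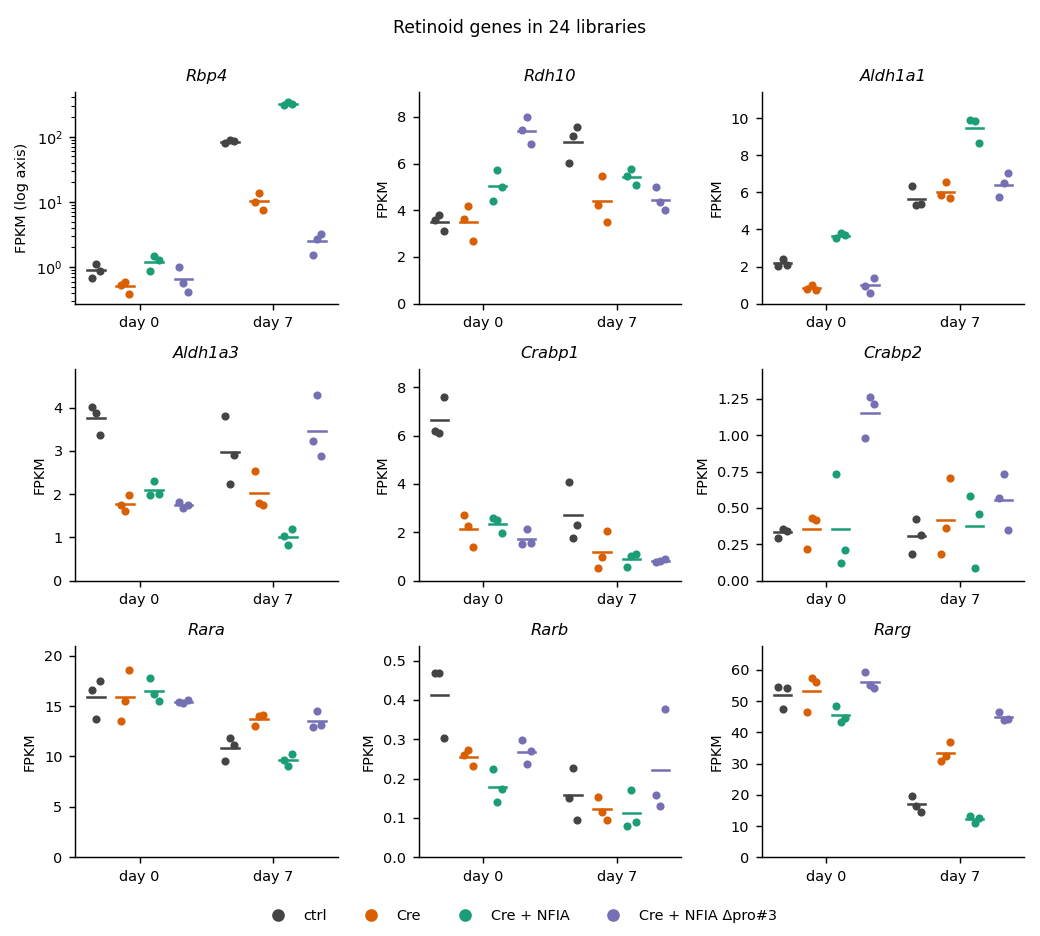
FPKM of the 9 retinoid genes in 24 libraries (y axis, linear from 0 except for Rbp4, which is on a log axis) by day and cell type, 1 point per library and a bar at the mean of 3. At day 7 Rbp4 is highest with full-length NFIA (307 to 346 FPKM) and lowest with the Δpro#3 mutant (1.52 to 3.22 FPKM), and Rarg has the opposite order.

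Rbp4 fell 8.11-fold in FPKM in Cre against ctrl at day 7 (log2 difference -2.94, SE 0.20, limma adjusted p = 6.56e-07). Full-length NFIA raised it 31.2-fold over Cre (4.87, limma adjusted p = 7.37e-09) and 3.84-fold over ctrl (1.93, limma adjusted p = 7.98e-05). Of all genes tested, 0.245% rose by at least 3-fold with full-length NFIA over ctrl at day 7, and Rbp4 was the retinoid gene among them. In contrast, the mutant left Rbp4 4.15-fold below Cre (-1.69, limma adjusted p = 0.000413) and 129-fold below full-length NFIA (-6.56, limma adjusted p = 7.09e-10). Cre and ctrl enter more than one of these comparisons, so they are not independent.

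Between ctrl and full-length NFIA the summed FPKM of the adipocyte markers did not move with Rbp4, at 21180 to 21370 with full-length NFIA and 22230 to 25740 in ctrl. Single markers need not follow the sum. The mean of Pparg, which is in the list, was higher with full-length NFIA than in ctrl, but that difference did not pass. The summed FPKM of thermogenic adipocyte markers (7 genes including Ucp1 and Cidea) moved with Rbp4 in the same comparison, at 151 to 160 FPKM against 62.9 to 82.0 FPKM in ctrl. Of these 7 genes, 4 had a mean of at least 1 FPKM in ctrl and 4 with full-length NFIA. Their sums in Cre and with the mutant were 4.68 to 11.0 and 1.51 to 2.66 FPKM, Cidea was at 0 in both, and Dio2 had at most 3 reads in any library of day 7. The part of either marker list in the Rbp4 differences was not tested.

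**Figure D2:**
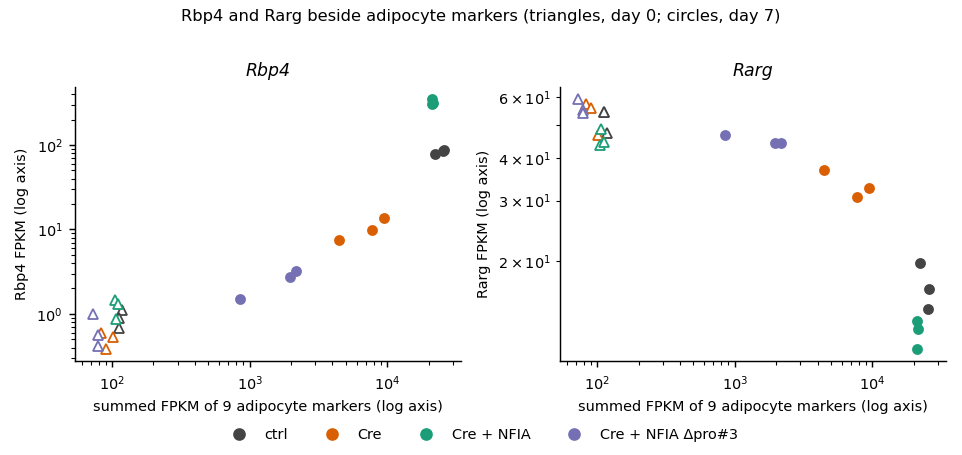
Rbp4 and Rarg (y axes, FPKM, log) against the summed FPKM of 9 adipocyte markers (x axis, log), 1 point per library, with triangles for day 0 and circles for day 7. At the marker sums of ctrl and full-length NFIA on day 7 (21180 to 25740), Rbp4 is at 78.8 to 87.9 FPKM in ctrl and at 307 to 346 FPKM with full-length NFIA, while Rarg is at 14.5 to 19.7 and 11.1 to 13.3 FPKM.

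Rbp4 rose over differentiation in each cell type, by 5.49 in ctrl, 2.88 in Cre, 7.2 with full-length NFIA and 1.06 with the mutant on the log2 scale (SE 0.18, limma adjusted p = 6.7e-16, 5.36e-11, 1.12e-17 and 8.69e-05). The rise differed between cell types in tests of the interaction of cell type and day. It was smaller in Cre than in ctrl by 2.61, larger with full-length NFIA than in Cre by 4.32 and smaller with the mutant than in Cre by 1.82 (limma adjusted p = 1.41e-07, 8.05e-11 and 8.07e-05). At day 0, full-length NFIA was above Cre by 0.55 (limma adjusted p = 0.0166), but the limma adjusted p was 0.0573 without Cre replicate 3, 0.0662 without NFIA replicate 2 and 0.0556 without NFIA replicate 3. By Pearson correlation of log2(FPKM + 1) over 24 libraries, the genes with the pattern most like Rbp4 were Pnpla3 (0.996), Ffar4 (0.996) and Pck1 (0.994).

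Rdh10, the retinol dehydrogenase that makes retinal in embryonic tissues and elsewhere, lies on chromosome 1 of mm9 from 16095855 to 16123815. Its highest levels were in the mutant before differentiation and in ctrl after it. Its levels at day 0 were 3.59, 3.81 and 3.10 in ctrl, 3.64, 4.17 and 2.67 in Cre, 4.41, 5.72 and 5.0 with full-length NFIA and 7.44, 7.98 and 6.82 FPKM with the mutant. By day 7 they were 6.03, 7.18 and 7.56 in ctrl, 4.21, 5.47 and 3.51 in Cre, 5.45, 5.77 and 5.07 with full-length NFIA and 5.0, 4.36 and 4.02 FPKM with the mutant. The mutant libraries at day 0 lay above all others of that day, and the ctrl libraries at day 7 above all others of day 7.

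Rdh10 was higher with the mutant than in Cre at day 0 by 0.92 (SE 0.13, limma adjusted p = 0.000916), a 2.12-fold difference in FPKM. Smaller differences at day 0 passed, but not in each fit that left out a library. The mutant was above full-length NFIA by 0.48 (limma adjusted p = 0.04), a call lost in 5 of 6 such fits, in which the difference was 0.40 to 0.56 (adjusted p 0.0449 to 0.132, lost without each mutant library and without NFIA replicates 1 and 3). Full-length NFIA was above Cre by 0.44, or 0.30 to 0.54 with a library left out (limma adjusted p = 0.0287, and 0.0888, 0.107 and 0.0694 without Cre replicate 3, NFIA replicate 2 and NFIA replicate 3). It was above ctrl by 0.42, or 0.34 to 0.50 with a library left out (limma adjusted p = 0.0282, and 0.103, 0.0653, 0.0563 and 0.0911 without NFIA replicates 2 and 3 and ctrl replicates 1 and 3).

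At day 7 the order changed. Rdh10 was lower in Cre than in ctrl by 0.56 (log2 difference -0.56, SE 0.13, limma adjusted p = 0.00228), and full-length NFIA and the mutant differed from Cre by 0.27 and 0.03, which did not pass (limma adjusted p = 0.0866 and 0.912). The first passed without Cre replicate 2 (0.40, adjusted p = 0.00913), with median-of-ratios size factors (0.36, adjusted p = 0.0308) and after quantile normalization (0.36, adjusted p = 0.0377). Between days Rdh10 rose in ctrl (0.81, limma adjusted p = 1.16e-05) and fell with the mutant (-0.63, limma adjusted p = 0.000626). The values in Cre and with full-length NFIA were 0.26 and 0.09, which did not pass (limma adjusted p = 0.101 and 0.545), the first of them passing without Cre replicate 2 of day 0 (0.37, adjusted p = 0.0349) or Cre replicate 3 of day 7 (0.38, adjusted p = 0.0254). The change over differentiation was lower with the mutant than in Cre by 0.89 (limma adjusted p = 0.00207) and lower in Cre than in ctrl by 0.55 (limma adjusted p = 0.0182, but 0.0586 without Cre replicate 2 of day 0 and 0.0647 without Cre replicate 3 of day 7). The genes most like Rdh10 over the 24 libraries were Exosc3 (Pearson r 0.836), Nxt1 (0.835) and H2afz (0.822), a looser likeness than that found for Rbp4.

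Aldh1a1, an enzyme that oxidises retinal to retinoic acid, lies on chromosome 19 from 20676451 to 20717952. It was highest with full-length NFIA at both days. Day 0 levels were 2.05, 2.39 and 2.07 in ctrl, 0.782, 0.985 and 0.746 in Cre, 3.54, 3.79 and 3.67 with full-length NFIA and 0.956, 0.593 and 1.4 FPKM with the mutant. Levels at day 7 were 6.33, 5.30 and 5.35 in ctrl, 5.88, 6.55 and 5.69 in Cre, 9.91, 9.83 and 8.67 with full-length NFIA and 5.76, 6.49 and 7.02 FPKM with the mutant. The libraries with full-length NFIA lay above all others at each day, ctrl lay above Cre and the mutant at day 0 only, and the ranges of ctrl, Cre and the mutant overlapped at day 7.

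At day 0 Aldh1a1 was lower in Cre than in ctrl (log2 difference -0.79, SE 0.13, limma adjusted p = 0.0106). Full-length NFIA raised it over Cre by 1.35 (limma adjusted p = 2.64e-05, 4.38-fold in FPKM) and over ctrl by 0.56 (limma adjusted p = 0.00675), and the mutant was below full-length NFIA by 1.25 (limma adjusted p = 0.0001). The mutant and Cre differed by 0.09 (SE 0.13), which did not pass (limma adjusted p = 0.678). The adipocyte marker sum was 105 to 111 with full-length NFIA and 82.7 to 101 in Cre at day 0, against at least 22230 in differentiated ctrl cells. Mesothelial and epithelial markers (6 genes) summed to 6.06 to 6.84 FPKM with full-length NFIA and 1.22 to 2.91 FPKM in the other cell types at day 0. In each cell type only 1 of the 6 genes had a mean of at least 1 FPKM, so the sum does not mark a cell type. Msln, Upk3b, Epcam and Krt8 were at no more than 3 reads in any library of that day. The part of this list in the Aldh1a1 differences was not tested.

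At day 7 the difference between Cre and ctrl was 0.08 (SE 0.09, limma adjusted p = 0.457) and was -0.04 with median-of-ratios size factors and -0.05 after quantile normalization. Full-length NFIA remained above Cre (0.57, limma adjusted p = 0.000145), above ctrl (0.65, limma adjusted p = 0.000509) and above the mutant by 0.50 (limma adjusted p = 0.000345). Aldh1a1 rose over differentiation in each cell type, by 1.07 in ctrl, 1.94 in Cre, 1.16 with full-length NFIA and 1.92 with the mutant (limma adjusted p = 3.28e-08, 1.48e-11, 8.68e-09 and 2.61e-11). The rise was larger in Cre than in ctrl by 0.87 (SE 0.16, limma adjusted p = 0.000141). It was smaller with full-length NFIA than in Cre by 0.77 (limma adjusted p = 0.000406), a call that was lost at a pseudocount of 5 (adjusted p = 0.0556). The nearest paralog, Aldh1a7, lies close by on chromosome 19 (20767443 to 20802052, minus strand), and 7.54% of the 2004 stretches of 50 bases in Aldh1a1 transcripts also occurred in Aldh1a7, so some reads of the pair may not have aligned uniquely. The genes most like Aldh1a1 included Fhl1 (Pearson r 0.954) and Prss12 (0.947).

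Aldh1a3, another retinaldehyde dehydrogenase, on chromosome 7 from 73535778 to 73572403, had another order of levels than Aldh1a1. Before differentiation the levels were 4.02, 3.87 and 3.37 in ctrl, 1.74, 1.60 and 1.99 in Cre, 1.99, 2.31 and 2.0 with full-length NFIA and 1.82, 1.68 and 1.75 FPKM with the mutant. After differentiation the levels were 3.81, 2.24 and 2.90 in ctrl, 2.53, 1.80 and 1.76 in Cre, 1.03, 0.826 and 1.19 with full-length NFIA and 3.23, 4.28 and 2.87 FPKM with the mutant. At day 0 ctrl stood above the 3 cell types with Cre, and at day 7 full-length NFIA stood below the other 3.

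At day 0 Aldh1a3 was lower in Cre than in ctrl (log2 difference -0.78, SE 0.08, limma adjusted p = 0.000824) and lower with full-length NFIA than in ctrl (-0.62, limma adjusted p = 0.000247). Smooth muscle markers were also higher in ctrl at day 0, with sums of 201 to 229 FPKM against 103 to 160 FPKM in the other cell types, and their part in the ctrl differences of Aldh1a3 and of Crabp1 was not tested. Neither NFIA form differed from Cre beyond the threshold (0.16 and -0.01, limma adjusted p = 0.176 and 0.946). At day 7 it was lower with full-length NFIA than in Cre (-0.58, SE 0.16, limma adjusted p = 0.00784) and than in ctrl (-0.97, limma adjusted p = 0.00185), and higher with the mutant than with full-length NFIA (1.14, limma adjusted p = 5.2e-05). The difference between the mutant and Cre, 0.56 (limma adjusted p = 0.0349), was lost without Cre replicates 2 or 3 (0.119 and 0.0878) or mutant replicates 1 or 2 (0.0752 and 0.116). Cre against ctrl at day 7 depended on the scaling. The log2 difference was -0.39 (limma adjusted p = 0.0593), and it passed with median-of-ratios size factors (-0.48, adjusted p = 0.0236) and after quantile normalization (-0.52, adjusted p = 0.0157). It also passed without Cre replicate 1 (adjusted p = 0.0313) or ctrl replicate 2 (0.0193).

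Over differentiation Aldh1a3 fell with full-length NFIA (-0.62, limma adjusted p = 0.000298) and rose with the mutant (0.69, limma adjusted p = 0.000294). In ctrl and Cre the changes were -0.27 and 0.12 (limma adjusted p = 0.0749 and 0.476), and that in ctrl passed without ctrl replicate 1 of day 7 (-0.42, adjusted p = 0.00935). The change was lower with full-length NFIA than in Cre by 0.74 (limma adjusted p = 0.00255) and higher with the mutant than in Cre by 0.57 (limma adjusted p = 0.0414). That last call was lost in 9 of 12 fits that left out a library, with adjusted p from 0.0207 to 0.114. It was lost without any of the 3 mutant libraries of day 0, without Cre replicates 1 or 3 of day 0, without Cre replicates 2 or 3 of day 7 and without mutant replicates 1 or 2 of day 7. Among the genes most like Aldh1a3 were Prss23 (Pearson r 0.842) and Lama2 (0.802).

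Crabp1, which encodes a cytoplasmic binding protein for retinoic acid, lies on chromosome 9 from 54612555 to 54620917. It was highest in ctrl before differentiation, at 6.19, 6.1 and 7.62 FPKM, against 2.70, 2.26 and 1.4 FPKM in Cre, 2.57, 2.51 and 1.98 FPKM with full-length NFIA and 1.5, 2.13 and 1.56 FPKM with the mutant. On day 7 the FPKM values were 4.06, 1.78 and 2.30 in ctrl, 0.520, 0.954 and 2.03 in Cre, 0.557, 1.00 and 1.11 with full-length NFIA and 0.748, 0.825 and 0.885 FPKM with the mutant. These were 5 to 80 reads per library, so counting error is part of the spread. All ctrl libraries of day 0 lay above all libraries of the 3 cell types with Cre, and at day 7 the ranges of ctrl and Cre overlapped.

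At day 0 Crabp1 was lower than in ctrl by 1.31 in Cre and by 1.19 with full-length NFIA (log2 differences -1.31 and -1.19, SE 0.16, limma adjusted p = 0.00211 and 0.000269). It did not differ beyond the threshold between Cre and either NFIA form at either day, with log2 differences of 0.12 and -0.18 at day 0 and -0.15 and -0.19 at day 7 (SE 0.16 and 0.25). At day 7 the difference between Cre and ctrl was -0.79 (limma adjusted p = 0.0185) and was lost without Cre replicate 1 (-0.56, adjusted p = 0.0836) or ctrl replicate 1 (-0.54, adjusted p = 0.0815). Full-length NFIA against ctrl was -0.94 (limma adjusted p = 0.0242) and was lost without NFIA replicate 1 (0.0942), NFIA replicate 2 (0.0569) or ctrl replicate 1 (0.0946). Crabp1 fell over differentiation by 1.08 in ctrl and 0.84 with full-length NFIA (limma adjusted p = 0.000191 and 0.0022). The falls in Cre and with the mutant, of 0.56 and 0.58 (limma adjusted p = 0.0396 and 0.0419), were not stable. The first was lost in 4 of 6 fits that left out a library (without Cre replicates 1 or 2 of either day, adjusted p up to 0.24, log2 difference -0.34 without Cre replicate 1 of day 7), and the second in 6 of 6 (adjusted p 0.0563 to 0.147). The genes most like Crabp1 were Has2 (Pearson r 0.812), Pdgfrl (0.789) and Sesn1 (0.776).

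Crabp2, the binding protein that carries retinoic acid to its receptors, on chromosome 3 from 87752588 to 87757298, was close to the limit of detection with 1 to 14 reads per library. The highest levels were those of the mutant at day 0, at 0.980, 1.27 and 1.22 FPKM, and the other 21 libraries were at 0.0891 to 0.735 FPKM. Crabp2 reached 1 FPKM in 2 libraries and Rarb in none, and since 3 libraries were required, both stayed out of the test, which held 7 of the 9 genes. In a fit without that filter, Crabp2 was higher with the mutant than in Cre at day 0 (log2 difference 0.67, SE 0.15, limma adjusted p = 0.021) and than with full-length NFIA (0.70, limma adjusted p = 0.0227), and it fell in the mutant over differentiation (-0.48, limma adjusted p = 0.0311). A limit of 3 reads corresponds to at most 0.431 FPKM for Crabp2 in the shallowest library, and it covers counting error only.

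Among the retinoic acid receptor genes, Rarg had the highest mean FPKM in each group. Its share of their sum was smallest in ctrl and with full-length NFIA at day 7. Rarg, on chromosome 15 from 102065369 to 102087948, was at 47.3 to 54.6 in ctrl, 46.6 to 57.3 in Cre, 43.5 to 48.4 with full-length NFIA and 54.1 to 59.2 FPKM with the mutant at day 0. Day 7 levels were 19.7, 16.6 and 14.5 FPKM in ctrl (16.9 ± 2.62, SD, n = 3), 30.7, 32.6 and 36.9 FPKM in Cre (33.4 ± 3.2), 13.3, 11.1 and 12.6 FPKM with full-length NFIA (12.3 ± 1.16) and 46.7, 44.1 and 44.2 FPKM with the mutant (45.0 ± 1.46). The 4 cell types did not overlap at day 7, in the order mutant, Cre, ctrl, full-length NFIA, which is the reverse of the order of Rbp4.

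The promoter of Rarg is shown for comparison with that of Rbp4, as the 250 bases before the first of 2 RefSeq starts, at chr15:102257523-102257772 of GRCm38.p6 on the minus strand, with TTGGC in capitals.
Rarg: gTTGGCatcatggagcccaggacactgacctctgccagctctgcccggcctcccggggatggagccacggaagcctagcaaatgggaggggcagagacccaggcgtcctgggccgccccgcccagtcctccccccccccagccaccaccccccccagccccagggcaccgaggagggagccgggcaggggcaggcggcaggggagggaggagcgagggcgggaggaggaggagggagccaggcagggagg
The core was found at -249 on the strand shown and, before the other start, at -150 on the opposite strand. The full nuclear factor I palindrome, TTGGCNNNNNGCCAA, was in none of the windows of these genes when 50 bases past the start were included, and 0.0365% of all such RefSeq windows held it.

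Rarg rose in Cre over ctrl at day 7 by 0.95 (SE 0.10, limma adjusted p = 1.17e-05, 1.97-fold in FPKM). It was lower with full-length NFIA than in Cre by 1.37 (log2 difference -1.37, limma adjusted p = 3.96e-07) and higher with the mutant than with full-length NFIA by 1.79 (limma adjusted p = 2.73e-08, 3.64-fold in FPKM). The outer steps of the order were smaller, and their calls did not hold in each fit that left out a library. The mutant was above Cre by 0.42, or 0.37 to 0.50 in those fits (limma adjusted p = 0.0149, and 0.0665, 0.0546 and 0.0607 without Cre replicates 1 and 2 and mutant replicate 1), and full-length NFIA was below ctrl (-0.42, or -0.52 to -0.31 in those fits, limma adjusted p = 0.016, and 0.0713 and 0.0581 without NFIA replicate 2 and ctrl replicate 1). The summed level of precursor or fibroblast genes was likewise high in Cre and with the mutant (1818 to 2313 FPKM) and low in ctrl and with full-length NFIA (758 to 917 FPKM), and smooth muscle markers were lowest with full-length NFIA and highest with the mutant. The part of these lists in the Rarg differences was not tested. At day 0, the difference of 0.30 between the mutant and full-length NFIA (limma adjusted p = 0.048) was lost without any 1 of the 6 libraries (adjusted p 0.0568 to 0.168).

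Over differentiation Rarg fell in each cell type, with log2 differences of -1.57 in ctrl, -0.66 in Cre, -1.80 with full-length NFIA and -0.31 with the mutant (SE 0.10, limma adjusted p = 7.02e-12, 9.98e-06, 7.23e-13 and 0.0142). The fall with the mutant was lost without replicate 1 of day 0 (adjusted p = 0.0612). The interactions passed for Cre against ctrl (0.92, limma adjusted p = 1.71e-05) and for full-length NFIA against Cre (-1.15, limma adjusted p = 9.05e-07), and the one for the mutant against Cre was 0.34 (limma adjusted p = 0.0927), which passed without Cre replicate 1 of day 0 (0.44, adjusted p = 0.0328), without Cre replicate 3 of day 7 (0.42, adjusted p = 0.0428) and after quantile normalization (0.42, adjusted p = 0.0369). The genes most like Rarg over the 24 libraries were Ckap4 (Pearson r 0.991), Vasn (0.989) and Kctd10 (0.989).

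**Figure D3:**
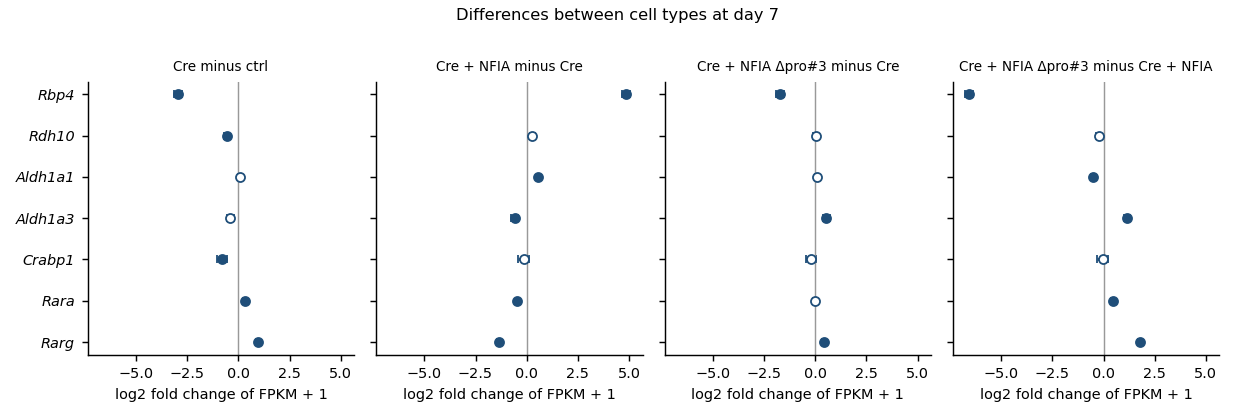
Log2 differences of FPKM + 1 (x axis) of the 7 tested retinoid genes in 4 comparisons at day 7, with bars for 1 SE, filled points where the difference passed and open points where it did not. Rbp4 spans -6.56 to 4.87, and Rarg goes the opposite way to Rbp4 in all 4 comparisons.

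Rara, the gene of RARα, on chromosome 11 from 98789132 to 98836256, was at 13.5 to 18.6 FPKM in all day 0 libraries. By day 7 levels were 9.59, 11.8 and 11.1 in ctrl, 13.0, 14.0 and 14.1 in Cre, 9.64, 9.10 and 10.3 with full-length NFIA and 12.9, 14.5 and 13.2 FPKM with the mutant. Cre and the mutant thus lay above ctrl and full-length NFIA, without overlap. Full-length NFIA was below Cre by 0.47 (log2 difference -0.47, SE 0.08, limma adjusted p = 0.00024) and the mutant above full-length NFIA by 0.45 (limma adjusted p = 0.000268). Cre was above ctrl by 0.32 (limma adjusted p = 0.00402), which with median-of-ratios size factors was 0.19 and did not pass (adjusted p = 0.0793). Rara fell over differentiation in ctrl (-0.51, limma adjusted p = 7.91e-05) and with full-length NFIA (-0.71, limma adjusted p = 1.39e-06). The changes of -0.18 in Cre and -0.18 with the mutant did not pass (limma adjusted p = 0.12 and 0.153), the former passing without Cre replicate 1 of day 0 (-0.29, adjusted p = 0.0201). The fall was larger with full-length NFIA than in Cre by 0.53 (interaction -0.53, limma adjusted p = 0.00325). The interaction for Cre against ctrl was 0.33 and did not pass (limma adjusted p = 0.053). It passed with limma voom (0.37, adjusted p = 0.035) and with a mean FPKM of at least 5 (adjusted p = 0.0453). It also passed without Cre replicate 3 of day 0 (0.0074), ctrl replicate 2 of day 0 (0.0127) or ctrl replicate 2 of day 7 (0.0352). The genes most like Rara were Pcnx3 (Pearson r 0.972), Med25 (0.963) and Tsc22d4 (0.954).

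Rarb, the gene of RARβ, on chromosome 14 from 17263356 to 17651381, is a textbook target of retinoic acid through a response element in its own promoter, a 6-base site repeated in the same direction with 5 bases between. The window of 250 bases before its RefSeq start, at chr14:16575477-16575726 of GRCm38.p6 on the minus strand, is shown with both sites of that repeat in capitals.
Rarb: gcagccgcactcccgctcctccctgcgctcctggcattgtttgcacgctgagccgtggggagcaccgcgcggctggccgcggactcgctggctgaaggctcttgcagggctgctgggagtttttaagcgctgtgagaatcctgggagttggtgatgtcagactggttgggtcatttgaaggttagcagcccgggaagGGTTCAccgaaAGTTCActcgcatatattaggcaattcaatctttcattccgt
The repeat starts at -53 and was found by a search of both strands for a pair of sites 5 bases apart, in which each site was the consensus AGGTCA or a variant of it, namely GGTTCA as in the upstream site shown, AGTTCA as in the downstream site shown, or also GGGTCA, which is not in the pair shown. Of 32851 windows of the same length, 29 (0.0883%) held such a pair, Rarb among them.

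Rarb itself was at 0.0789 to 0.470 FPKM, 4 to 22 reads per library. It was highest in ctrl at day 0, at 0.470, 0.468 and 0.304 FPKM, above the 0.232 to 0.274 FPKM of Cre, 0.140 to 0.224 FPKM with full-length NFIA and 0.237 to 0.297 FPKM with the mutant. In the fit without a filter, Rarb was lower with full-length NFIA than in ctrl at day 0 (log2 difference -0.26, SE 0.05, limma adjusted p = 0.00421) and fell over differentiation in ctrl (-0.29, limma adjusted p = 0.000635). At day 7 the levels were 0.0789 to 0.376 FPKM and none of the 5 differences between cell types passed, with unfiltered log2 differences from -0.06 to 0.13.

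Summed over the 3 receptor genes, day 0 levels were 62.2 to 71.9 FPKM as group means. At day 7 the sum was 27.9 ± 1.95 in ctrl, 47.2 ± 3.67 in Cre, 22.1 ± 1.55 with full-length NFIA and 58.8 ± 1.03 FPKM with the mutant (SD, n = 3). Rarg made up 73.2% to 78.1% of the sum at day 0. At day 7 its share was 60.4% in ctrl, 70.6% in Cre, 55.8% with full-length NFIA and 76.6% with the mutant, and Rarb was under 1% of the sum in each group.

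**Figure D4:**
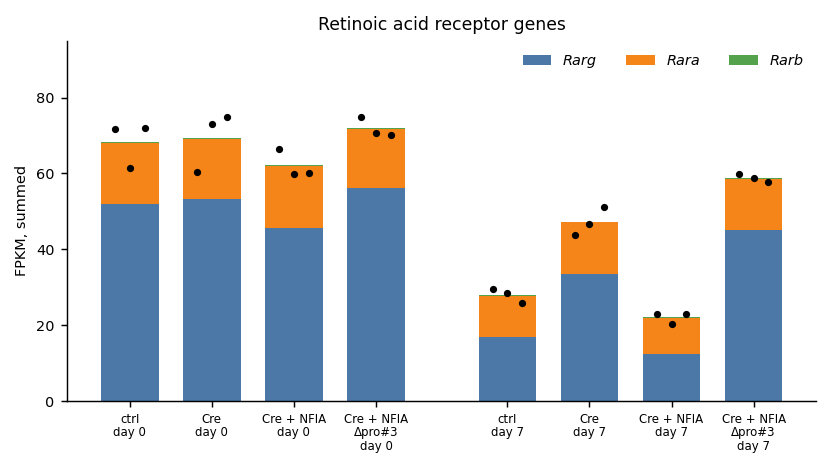
Summed FPKM of the retinoic acid receptor genes (y axis, from 0) by group, with stacked bars for the mean of 3 libraries of Rarg, Rara and Rarb and dots for each library's sum. The sum at day 7 is 22.1 FPKM with full-length NFIA and 58.8 FPKM with the mutant, and most of the difference between groups is in Rarg.

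How many of the 7 tested genes passed is to be read against the share of all genes that did, which was high at day 7. In Cre against ctrl at day 7, 5 passed (Rara and Rarg higher, Rbp4, Rdh10 and Crabp1 lower), against 58.8% of all genes. With full-length NFIA against Cre, 5 passed (Rbp4 and Aldh1a1 higher, Aldh1a3, Rara and Rarg lower), against 63% of all genes. The mutant against full-length NFIA gave the same 5 genes in the opposite directions, against 69.2%, and shares the libraries of full-length NFIA. These shares are near the background. With the mutant against Cre, 3 passed (Aldh1a3 and Rarg higher, Rbp4 lower) against 17.7%, and with full-length NFIA against ctrl 5 passed (Rbp4 and Aldh1a1 higher, Aldh1a3, Crabp1 and Rarg lower) against 18%.

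At day 0 the background was lower. In Cre against ctrl 3 of 7 passed (Aldh1a1, Aldh1a3 and Crabp1, each lower), against 3.33% of all genes in either direction and 1.7% lower. Against Cre, 3 passed with full-length NFIA (Rbp4, Rdh10 and Aldh1a1, each higher; background 27.6%) and 1 with the mutant (Rdh10, higher; background 18.3%). Between the mutant and full-length NFIA 3 passed (Rdh10 and Rarg higher, Aldh1a1 lower) against 10.1%, and between full-length NFIA and ctrl 4 passed (Rdh10 and Aldh1a1 higher, Aldh1a3 and Crabp1 lower) against 33.1%. From day 0 to day 7, 6 genes passed in ctrl, 4 in Cre (Rbp4 and Aldh1a1 higher, Crabp1 and Rarg lower), 6 with full-length NFIA and 6 with the mutant, against 71%, 51.7%, 70.1% and 41.5% of all genes. In the interactions 4, 5 and 3 genes passed, for Cre against ctrl, full-length NFIA against Cre and the mutant against Cre, against 49.2%, 48.9% and 18.2%.

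Other genes of the pathway were taken from a list of 46 genes, of which 30 were tested. In Cre against ctrl at day 7, 4 passed higher (among them Adh7, Cyp26b1 and Rarres1) and 20 lower, where 22.7% of all genes were lower, with a median log2 difference over the 30 of -0.57 against 0.09 over all genes. With full-length NFIA against Cre 19 passed higher and 6 lower (27% of all genes higher; median 0.47 against -0.06), and with the mutant against Cre 1 passed higher (Ppard) and 14 lower (10% of all genes lower; median -0.36 against 0.02). Between full-length NFIA and ctrl 1 passed higher (Nrip1) and 6 lower, where 18% of all genes passed in either direction (median -0.04 against 0.02). Of the 13 tested genes of retinol and retinal oxidation and reduction, 11 passed lower and 1, Adh7, higher in Cre against ctrl, beside the 22.7% of all genes that were lower. These shares of all genes moved with the scaling. In Cre against ctrl, 2867 genes passed lower in the main fit and 3948 with median-of-ratios size factors. With full-length NFIA against Cre, 3418 and 4264 genes passed higher.

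Fabp5, Aldh1a7, Adh1 and Dgat1 at day 7 were high in ctrl and with full-length NFIA, lower in Cre and lowest with the mutant, as adipocyte markers were. Fabp5, a fatty acid binding protein that also carries retinoic acid, was at 1412 ± 87.6 FPKM in ctrl, 552 ± 168 in Cre, 1712 ± 49.7 with full-length NFIA and 145 ± 32.3 with the mutant. Aldh1a7, the paralog of Aldh1a1, had levels of 325 ± 13.4, 117 ± 30.5, 268 ± 7.43 and 25.6 ± 9.03 FPKM in these cell types, and rose from under 1 FPKM at day 0. At day 7 it was 97.2%, 93.0%, 96.1% and 70.3% of the summed FPKM of Aldh1a1, Aldh1a2, Aldh1a3 and Aldh1a7. In FPKM, changes of Aldh1a1 and Aldh1a3 were thus small beside it. These shares are of RNA and do not measure oxidation of retinal, and whether Aldh1a7 takes part in it was not tested. Adh1, an alcohol dehydrogenase that also oxidises retinol, was at 147 ± 10.9, 82.9 ± 23.2, 164 ± 5.96 and 23.5 ± 10.2 FPKM, and Dgat1, which esterifies diacylglycerol and also retinol, at 225 ± 19.6, 92.0 ± 24.1, 257 ± 2.32 and 39.6 ± 6.0 FPKM.

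Each of Fabp5, Aldh1a7, Adh1 and Dgat1 passed in Cre against ctrl, full-length NFIA against Cre, the mutant against Cre and the mutant against full-length NFIA, and none passed between full-length NFIA and ctrl (log2 differences 0.28, -0.28, 0.16 and 0.20). For Adh1 the difference between Cre and ctrl (-0.85, limma adjusted p = 0.0228) was lost without Cre replicate 3 (adjusted p = 0.101), ctrl replicate 2 (0.0647) or ctrl replicate 3 (0.0555), after quantile normalization (-0.70, adjusted p = 0.0539) and without a filter (0.0612). Of 12 listed genes known to be raised by retinoic acid 7 were tested, and they moved both ways at day 7. In Cre against ctrl 2 passed higher and 3 lower, where 58.8% of all genes passed in either direction (median log2 difference -0.10 against 0.09 over all genes). With full-length NFIA against Cre 4 passed higher and 3 lower, where 63% of all genes passed in either direction. Among them, Tgm2, a transglutaminase, and Rarres2, which encodes the adipokine chemerin, had levels of 59.1 ± 7.97 and 44.7 ± 9.74 FPKM in ctrl, 30.8 ± 12.1 and 16.2 ± 4.59 in Cre, 53.5 ± 3.5 and 42.6 ± 3.93 with full-length NFIA and 8.46 ± 2.53 and 7.2 ± 1.76 with the mutant. Where Rbp4 exceeded ctrl with full-length NFIA, these pathway genes did not pass in that comparison. The part of the adipocyte markers in these differences was not tested.

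**Figure D5:**
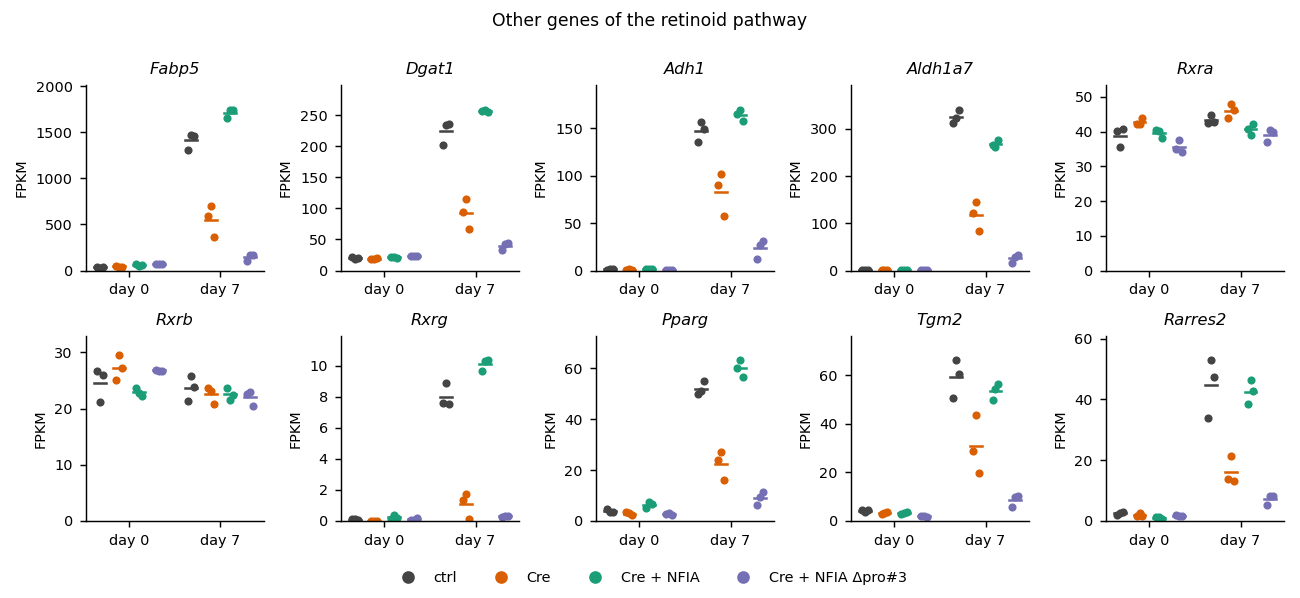
FPKM (y axes, linear from 0) of 10 other genes of the retinoid pathway by day and cell type, 1 point per library with a bar at the mean of 3. Fabp5, Dgat1, Adh1, Aldh1a7, Rxrg, Pparg, Tgm2 and Rarres2 are lowest at day 7 with the Δpro#3 mutant by their means, whereas Rxra and Rxrb are at 20.4 to 47.8 FPKM in all 24 libraries.

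The partners of the receptors differed among themselves. Rxra and Rxrb, which encode RXRα and RXRβ, were at 43.2 ± 1.21, 45.9 ± 2.02, 40.7 ± 1.61 and 39.1 ± 1.85 FPKM and at 23.6 ± 2.18, 22.5 ± 1.5, 22.5 ± 1.02 and 22.0 ± 1.38 FPKM in ctrl, Cre, full-length NFIA and the mutant at day 7. Rxra was lower than in Cre by 0.17 with full-length NFIA and by 0.23 with the mutant (log2 differences -0.17 and -0.23, limma adjusted p = 0.0142 and 0.0125), and Rxrb passed in none of the 5 comparisons of day 7. Rxrg was at 7.62, 8.91 and 7.5 in ctrl, 1.38, 1.76 and 0.115 in Cre, 9.67, 10.3 and 10.3 with full-length NFIA and 0.254, 0.315 and 0.334 FPKM with the mutant. It was lower in Cre than in ctrl (-2.21, limma adjusted p = 1.55e-05) and higher with full-length NFIA than in Cre (2.52, limma adjusted p = 3.52e-06), and Cre replicate 3 stood apart from the other Cre libraries. The mutant against Cre was -0.58 (limma adjusted p = 0.141), and -0.98 (adjusted p = 9.14e-05) without that library. Pparg, the gene of the adipocyte receptor, was at 52.0 ± 2.5, 22.4 ± 5.55, 60.0 ± 3.34 and 9.02 ± 2.52 FPKM.

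Among genes at the ends of the pathway, Lrat, which makes retinyl esters, and Ttr, the blood partner of RBP4, were at 0 reads in all 24 libraries. The retinol transporter gene Stra6 had at most 13 reads and the retinoic acid hydroxylase gene Cyp26a1 at most 5 reads per library. Cyp26b1, the only tested gene for clearance of retinoic acid and named after its values were seen, was at 1.52 ± 0.131 FPKM in ctrl, 3.93 ± 0.107 in Cre, 1.4 ± 0.256 with full-length NFIA and 2.67 ± 0.189 with the mutant at day 7. It rose in Cre over ctrl by 0.97 (limma adjusted p = 4.91e-06) and was lower than in Cre both with full-length NFIA (-1.04, limma adjusted p = 1.54e-06) and with the mutant (-0.43, limma adjusted p = 0.00904).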

How the data were processed

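Reads of stranded poly(A) RNA libraries were aligned by the authors to mm9 with STAR 2.5.3a (build and aligner as in the submitters' processing notes), uniquely aligned reads were counted for each gene on its own strand, and FPKM per library was deposited. The FPKM values were whole multiples of 1 read (100% within 0.01), so reads and library totals were recovered, and 3 reads was taken as the floor. No molecular identifiers were used, so floors cover counting error only. Of the symbols, 26 read as dates and 2 were repeated, and none of these is named.

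A gene was tested if at least 3 libraries reached 1 FPKM (12640 genes). Values were transformed to log2(FPKM + 1) and fitted with limma 3.58.1 (R 4.3.3) with a mean-variance trend, two-sided, with Benjamini-Hochberg adjustment over all tested genes. Comparisons within a day used its 12 libraries, and those between days and the interactions used 24. The retinoid genes and the lists of pathway and marker genes were chosen with earlier results of these data known. Other pathway genes were named if they passed at 3-fold or more at day 7 or between days, at most 8 by size of change, together with the RXR genes and Pparg; Nrip1, Ppard, Adh7, Rarres1 and Cyp26b1 were named after their values were seen. For each tested gene the genes given as most like it are from the 3 with the highest correlation, and some are not reported here. Gene positions (1-based) came from GENCODE vM1 (NCBIM37). Promoter windows came from RefSeq (GRCm38.p6), which held 6 of the 9 genes. The alternatives were pseudocounts of 0.1 and 5, leaving out the filter, a minimum mean of 5 FPKM, scaling by median-of-ratios size factors or by quantiles, a replicate block and each library left out. Limma voom on the recovered reads and the search for TTGGC alone were added once the data had been seen. The fit was tested on simulated data. Replicate libraries differed by more than sampling noise in all 24 pairs (chi-square per degree of freedom 2.17 to 15.1), so none was a copy of another's reads. This does not show that they came from separate cultures.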

Additional observations from a re-analysis of the deposited data

Results flagged for a closer look

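The change over differentiation differed between cell types in 12 of 21 interaction tests of the tested retinoid genes (7 genes in 3 contrasts), in 6 of the 7 genes (limma, Benjamini-Hochberg adjusted p under 0.05 over all genes tested). Against ctrl, the change in Cre differed by 0.87 for Aldh1a1, -2.61 for Rbp4, -0.55 for Rdh10 and 0.92 for Rarg on the log2 scale. Against Cre, the change with full-length NFIA differed by -0.77 for Aldh1a1, -0.74 for Aldh1a3, 4.32 for Rbp4, -0.53 for Rara and -1.15 for Rarg. With the Δpro#3 mutant it differed from Cre by 0.57 for Aldh1a3, -1.82 for Rbp4 and -0.89 for Rdh10. Rbp4 and Rarg thus had opposite signs in the first contrasts, and Aldh1a1, whose difference between Cre and ctrl lay at day 0, had the sign opposite to Rbp4. The share of all genes that passed in the same contrasts was 49.2%, 48.9% and 18.2%.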

How the results depend on the processing

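Of 71 calls of single retinoid genes, 56 were kept without each library in turn and 15 were lost without at least 1, and none that passed under any setting changed sign. Calls lost and gained were 2 and 2 with limma voom on the recovered reads, 2 and 3 under median-of-ratios size factors, 0 and 5 after quantile normalization, 9 and 0 without a filter, 2 and 0 at a pseudocount of 0.1 and 3 and 1 at a pseudocount of 5. With a mean FPKM of at least 5, fewer of the genes were tested, and the numbers passing were 0 in Cre against ctrl and 1 in full-length NFIA against ctrl at day 0, 3 in full-length NFIA against Cre, 3 in the mutant against full-length NFIA and 2 in full-length NFIA against ctrl at day 7, 2, 3 and 3 between days in Cre, full-length NFIA and the mutant, and 3 in the interaction for full-length NFIA against Cre. Without a filter 1 of the 7 genes, Aldh1a1, passed in the mutant against full-length NFIA at day 0, and Crabp2 passed beside them. Leaving out 1 library, the numbers passing were 1 to 4 in full-length NFIA against Cre at day 0, 1 to 2 in the mutant against full-length NFIA at day 0, 1 to 3 in the mutant against Cre at day 7 and 3 to 5 in full-length NFIA against ctrl at day 7. Nfia in Cre against ctrl changed sign, from -0.06 to between -0.116 and 0.0343 at day 0 when 1 library was left out, and from 0.07 to -0.0555 (median-of-ratios size factors) and -0.0594 (quantile normalization) at day 7, passing in none. Median-of-ratios size factors moved the median log2 difference of all genes by -0.11 in Cre against ctrl and by -0.10 in the mutant against full-length NFIA at day 7, and the share of calls that were higher from 61.4% to 46.3% in the first. Deviations of same-numbered libraries from their group means were little correlated (mean correlation -0.16 to 0.06, and in no comparison over 0.1 in all 3 pairs). This cannot tell whether equal numbers pair cultures, which the labels do not state. With the replicate block Crabp1 lost its fall over differentiation in Cre (adjusted p = 0.0527) and with the mutant (0.056), Rarg lost the mutant against full-length NFIA at day 0 (0.0822), and Rdh10 passed between days in Cre (0.0495). The causes of these changes were not tested. Depth limits Crabp2 and Rarb most, at 1 to 22 reads per library.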
